A study of Mus musculus with 8 samples.

Results

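Lipoprotein lipase is the enzyme that frees fatty acids from circulating triglyceride. It was followed with its partners and with 5 apolipoproteins in mouse brown fat labelled Prdm16 knockout or wild type. The 10 genes are Lpl, Gpihbp1, Lmf1, Angptl4, Apoc2, Apoc4, Apoc1, Apoe, Apod and Vldlr, of 21742 genes tested. They were taken by gene name on the array, which gave 14 probes on 23 spots, and all 14 passed the filter on dim probes. The set was chosen by the 6-week log2 ratios of Apoc2 and Apoc4, which had been seen among the largest rises in knockout tissue. The 6-week values of all 10 genes, and the differences between ages that contain them, are therefore given as a description with no p, and the tests below are those of the 11-month arrays.

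The groups were Prdm16 knockout (KO) and wild-type (WT) brown adipose tissue at 6 weeks and at 11 months of age, with 4 biological replicates per genotype and age per the labels. Each 2-colour array carried KO RNA in one dye and WT RNA of the same age in the other, and the KO sample was in Cy3 on 2 and in Cy5 on 2 of the 4 arrays of each age. Prdm16 encodes a zinc-finger regulator of brown fat identity. How and in which cells it was deleted, and the strain, sex and pooling of the mice, were not given in the sources used here. The ages were run as separate batches on separate slides, so age and batch cannot be told apart. Values are log2 ratios of KO over WT, and a fitted value is that of a limma model of all 8 arrays with 1 coefficient per age and 1 for the dye, given ± its standard error (SE, n = 4 arrays per age). A gene was called at a Benjamini-Hochberg adjusted p below 0.05 over all genes. Levels are log2 intensities normalised within and between arrays, and they are not compared between probes.

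Between 61.2% and 68.2% of the spots in a channel were well above background, and none was saturated. Prdm16 itself stood at -0.58 ± 0.15 at 6 weeks (adjusted p = 0.042) and -0.50 ± 0.15 at 11 months (adjusted p = 0.0372), with array values from -1.09 to 0.06, and whether its probe lies in the deleted part was not given in the sources used here. None of 7 brown adipocyte markers was below background in every sample of an age. At an adjusted p below 0.05 in limma 0 of the 7 changed at 6 weeks, against 16.2% of all genes. At 11 months 7 fell, against 16.8% of all genes, with Ucp1, the thermogenic uncoupling protein, at -4.05 ± 0.44. In bulk tissue fewer cells of a type and less RNA per cell cannot be told apart. Genes of skeletal muscle, which lies next to this depot, had list medians between -3.45 and 2.80 in the 6-week arrays and between -1.25 and 1.71 in the 11-month arrays.

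Lipoprotein lipase is made by adipocytes and muscle and works on the surface of capillaries, where it hydrolyses the triglyceride of chylomicrons and very-low-density lipoproteins. LMF1 is needed for the enzyme to fold, GPIHBP1 carries it across the capillary wall and holds it there, APOC2 on the lipoprotein activates it, and ANGPTL4 inactivates it. APOE is a ligand by which remnants are taken up through receptors of the LDL receptor family, of which VLDLR is one, and APOC1 restrains both hydrolysis and uptake. Brown fat is a major site of triglyceride clearance in cold-exposed mice.

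Apoc2, Apoc4, Apoc1 and Apoe lie side by side on mouse chromosome 7. In the order of the RefSeq annotation of GRCm38.p6 they stand between Gm44805 and Tomm40 with no other gene among them. The probes lie on the minus strand of mm9 at chr7:20257027-20257086 (Apoc2), chr7:20263609-20263965 (Apoc4), chr7:20274831-20274890 (Apoc1) and chr7:20281732-20281791 (Apoe), so that the Apoc2 probe is 24.7 kb and the Apoc1 probe 6.90 kb from that of Apoe. The Apoc4 probe has 60 bases but spans 357 bases of the genome and thus reads spliced transcript. The Apoe probe was printed on 10 spots of every array. The probes of Apoc4 and Apoe and the more 5′ of the Lpl probes (plus strand of mm9, chr8:71425050-71425109) are shown 5′ to 3′, with no base in capitals. The gene value of Lpl rests on its other probe, at the 3′ end, which is not shown.
Apoc4 probe: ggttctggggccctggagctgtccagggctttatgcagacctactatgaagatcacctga
Apoe probe: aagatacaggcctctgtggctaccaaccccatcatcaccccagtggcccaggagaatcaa
Lpl probe: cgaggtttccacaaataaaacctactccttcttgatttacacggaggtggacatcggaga

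At 6 weeks Apoc2 and Apoc4 were high together and Apoe was not, while at 11 months Apoe was high as well (1.43). The 250 bases before their annotated starts are shown next, from RefSeq on GRCm38.p6 (minus strand, chr7:19677942-19678191 for Apoc2, chr7:19681461-19681710 for Apoc4 and chr7:19699189-19699438 for the first of 3 starts of Apoe). A link between these bases and the ratios was not tested. Of the 10 genes, 6 had an entry in that table, with 9 windows of 300 bases, and Apoc1, Lpl, Gpihbp1 and Angptl4 had none. Capitals mark AGGTCA, the half-site that many nuclear receptors bind, found on either strand.
Apoc2 upstream: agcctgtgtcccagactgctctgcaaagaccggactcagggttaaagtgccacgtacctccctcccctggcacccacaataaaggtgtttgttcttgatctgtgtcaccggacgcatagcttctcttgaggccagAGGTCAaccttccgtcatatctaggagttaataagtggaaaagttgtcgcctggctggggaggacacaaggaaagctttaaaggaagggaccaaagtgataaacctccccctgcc
Apoc4 upstream: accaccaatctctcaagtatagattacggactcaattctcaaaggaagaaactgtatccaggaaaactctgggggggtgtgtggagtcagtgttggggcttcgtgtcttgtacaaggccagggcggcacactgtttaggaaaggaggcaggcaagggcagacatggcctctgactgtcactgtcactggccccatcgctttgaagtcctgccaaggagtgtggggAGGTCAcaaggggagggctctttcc
Apoe upstream: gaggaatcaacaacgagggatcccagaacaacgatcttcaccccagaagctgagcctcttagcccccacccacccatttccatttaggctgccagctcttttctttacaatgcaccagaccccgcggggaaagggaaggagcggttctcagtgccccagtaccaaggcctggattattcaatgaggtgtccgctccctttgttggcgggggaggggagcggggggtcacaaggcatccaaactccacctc
The windows of 300 bases, which run to 50 bases past the start, held AGGTCA at 2 places in Apoc2, position -115 and 1 place past the start that is not printed, and at 1 place in Apoc4, position -25, counted from the start. Of 32851 RefSeq promoter windows of this length 16.3% held it. It was in none of the 3 windows of Apoe, nor in those of Apod, Lmf1 and Vldlr. None of the 9 windows held the direct repeats of AGGTCA spaced by 1 base (0.0396% of all windows) or 4 bases (0.0152%), the EBF palindrome of TCCC and GGGA around 2 bases (0.904%), or CACGTG (7.15%), each searched on both strands. TATAAA (13.6%) was in the second window of Apoe only, on both strands, where its 2 matches overlap. A match of letters is a description and not a binding site.

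At 6 weeks Apoc2 and Apoc4 stood far above WT in KO tissue while the 2 genes beside them, Apoc1 and Apoe, stood below it. Apoc2 had a fitted value of 2.79 ± 0.15 (6.94-fold higher in KO) and Apoc4 of 3.16 ± 0.24 (8.94-fold higher, with WT near background), the fifth and the third of all genes counted from the top. Apoc1 was at -0.71 ± 0.13 and Apoe at -0.50 ± 0.12. In all, 5 of the 10 genes were past the call threshold, against 16.2% of all genes, and since this contrast chose the genes nothing is read from that count. The 2 higher ones were Apoc2 and Apoc4 and the 3 lower ones Apoc1, Apoe and Apod, against 9.18% and 7.01% of all genes. None of the 3 lower calls was made under median centring or without 6-week array 1. Only that of Apoc1 was made without 6-week array 2 or 3, and only that of Apod with no dye coefficient. The median of the 10 was -0.044, and that of all genes -0.0011.

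**Figure D1:**
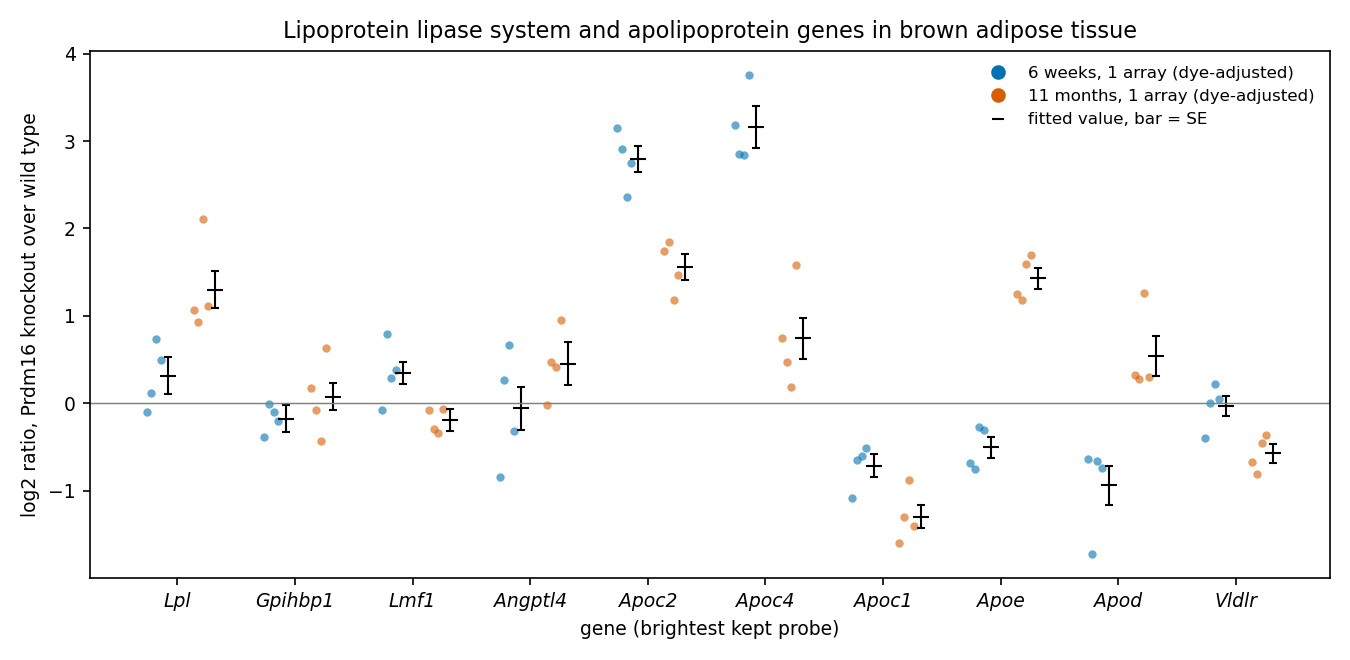
Log2 ratio of Prdm16 knockout over wild type for the 10 genes (brightest probe of each), at 6 weeks (blue) and 11 months (orange), with 1 point per dye-adjusted array and the fitted value with its SE in black. Apoc2 and Apoc4 lie above 0 on every array at both ages, and Apoe and Apod lie below 0 at 6 weeks and above it at 11 months.

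Apoc2, the activator of lipoprotein lipase, had levels of 11.58, 11.18, 11.27 and 11.81 in the 4 KO samples at 6 weeks, against 8.68, 8.53, 8.65 and 8.80 in the WT samples. The groups did not overlap, as was so for 10.6% of all genes on the high side and 8.94% on the low side at 6 weeks, and the lowest KO sample was far above the highest WT sample. At 11 months the levels were 10.65, 10.68, 10.07 and 10.56 in KO tissue, against 8.65, 8.58, 9.14 and 9.35 in WT tissue. Again no KO sample reached down to a WT sample. Apoc2 rose at 11 months by 1.56 ± 0.15 (2.95-fold, adjusted p = 0.000204, limma), with all 4 arrays positive at 0.93 to 2.10. The value at 11 months was lower than that at 6 weeks by 1.23 ± 0.21 on the log2 scale.

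Apoc4 encodes a small apolipoprotein of very-low-density lipoproteins whose role is less well defined. At 6 weeks its levels were 10.03, 9.63, 9.80 and 10.67 in KO tissue, against 6.93, 6.85, 6.88 and 6.83 in WT tissue, without overlap. The WT channel was well above background on 3 of the 4 arrays and close to its level at 11 months, so the size at 6 weeks depends on the background correction: it was 4.01 with no offset, 3.67 in the deposited table and 4.54 with the scanner software's log ratio. At 11 months they were 7.76, 7.56, 6.88 and 8.27 in KO tissue, against 6.94, 7.01, 6.78 and 6.77 in WT tissue. The KO sample of 11-month array 3 lay within the range of the WT samples and the other 3 lay above it. The WT channel was not well above background on any of the 4 arrays at 11 months, so the size there also depends on the background correction. The fitted value was 0.74 ± 0.24 (1.68-fold higher in KO, adjusted p = 0.0422, limma), an estimate and not a minimum. Of the 6 calls among the 10 genes this one had the highest adjusted p. It ended without 11-month array 1, 2 or 4 (adjusted p = 0.123, 0.0784 and 0.129, with 0.41 without array 4) and without 6-week array 1, 2 or 3 (adjusted p = 0.0592, 0.0555 and 0.0531). It also ended under median centring (0.75, adjusted p = 0.0683), when dim probes were all kept (adjusted p = 0.055) and with each age modelled alone (adjusted p = 0.0657). Its size rose to 1.25 with no offset in the background correction and to 2.32 (adjusted p = 0.000259) with the scanner software's log ratio.

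**Figure D2:**
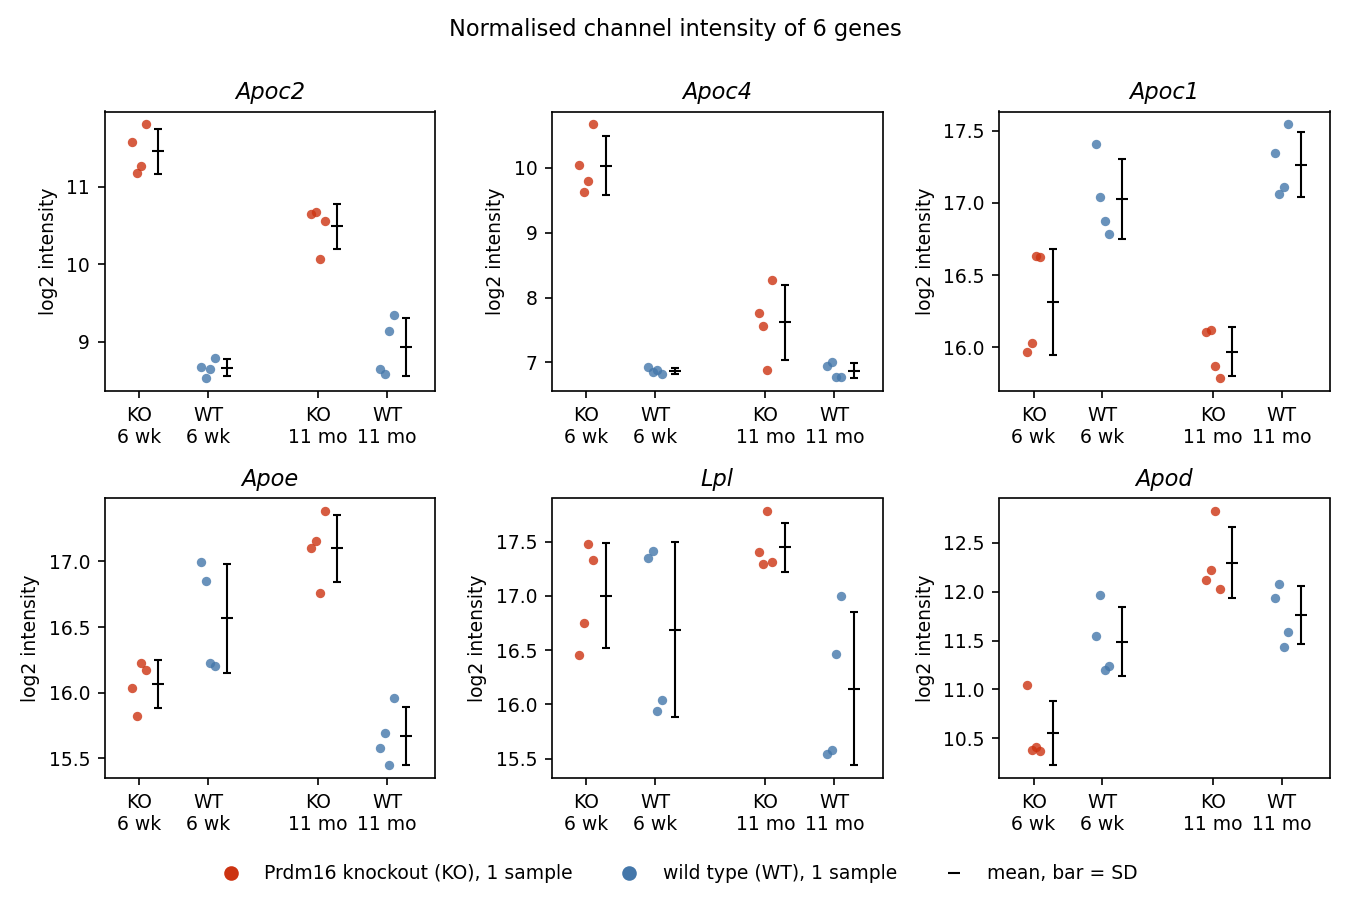
Normalised log2 intensity of 6 of the genes in each sample, with KO to the left of WT at each age, points for samples and black marks for the mean with its SD (n = 4). The axes start at different levels and do not start at 0. KO and WT samples of Apoc2 do not overlap at either age, and those of Apoe overlap at 6 weeks and lie apart, with KO above, at 11 months.

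Apoc1, which in mice and humans restrains lipoprotein lipase and receptor uptake, was the one apolipoprotein of the cluster to fall at 11 months. Its levels then were 16.10, 16.12, 15.87 and 15.78 in KO tissue, against 17.34, 17.06, 17.11 and 17.55 in WT tissue. All KO samples lay below all WT samples, and Apoc1 fell by 1.30 ± 0.13 on the log2 scale (2.46-fold lower in KO, adjusted p = 0.000291). At 6 weeks KO levels were 15.97, 16.03, 16.63 and 16.63, against WT levels of 17.41, 17.04, 16.88 and 16.78. The groups did not overlap there either, with the highest KO level at 16.63 and the lowest WT level at 16.78. These 6-week log2 ratios followed the dye: they were -1.44 and -1.01 with KO in Cy3, and -0.24 and -0.16 with KO in Cy5. With the dye coefficient of 0.72 taken out they lay between -1.08 and -0.52.

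Apoe moved apart from Apoc1 at 11 months only. Its levels at 11 months were 17.10, 17.15, 16.76 and 17.38 in KO tissue, against 15.58, 15.69, 15.44 and 15.96 in WT tissue. Every KO sample was above every WT sample, and Apoe rose by 1.43 ± 0.12 (2.70-fold, adjusted p = 0.000133). At 6 weeks the levels were 16.04, 15.82, 16.23 and 16.17 in KO tissue, against 16.99, 16.85, 16.22 and 16.20 in WT tissue, with overlap between the groups. The log2 ratios of the 6-week arrays followed the dye: they were -0.96 and -1.03 with KO in Cy3, and 0.0038 and -0.028 with KO in Cy5. With the dye coefficient of 0.55 (KO in Cy5 minus KO in Cy3) taken out, all 4 lay between -0.75 and -0.27. The 10 spots of an array had a standard deviation of 0.023 to 0.042, much below the spread between arrays. The 11-month value exceeded the 6-week value by 1.93 ± 0.17.

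**Figure D3:**
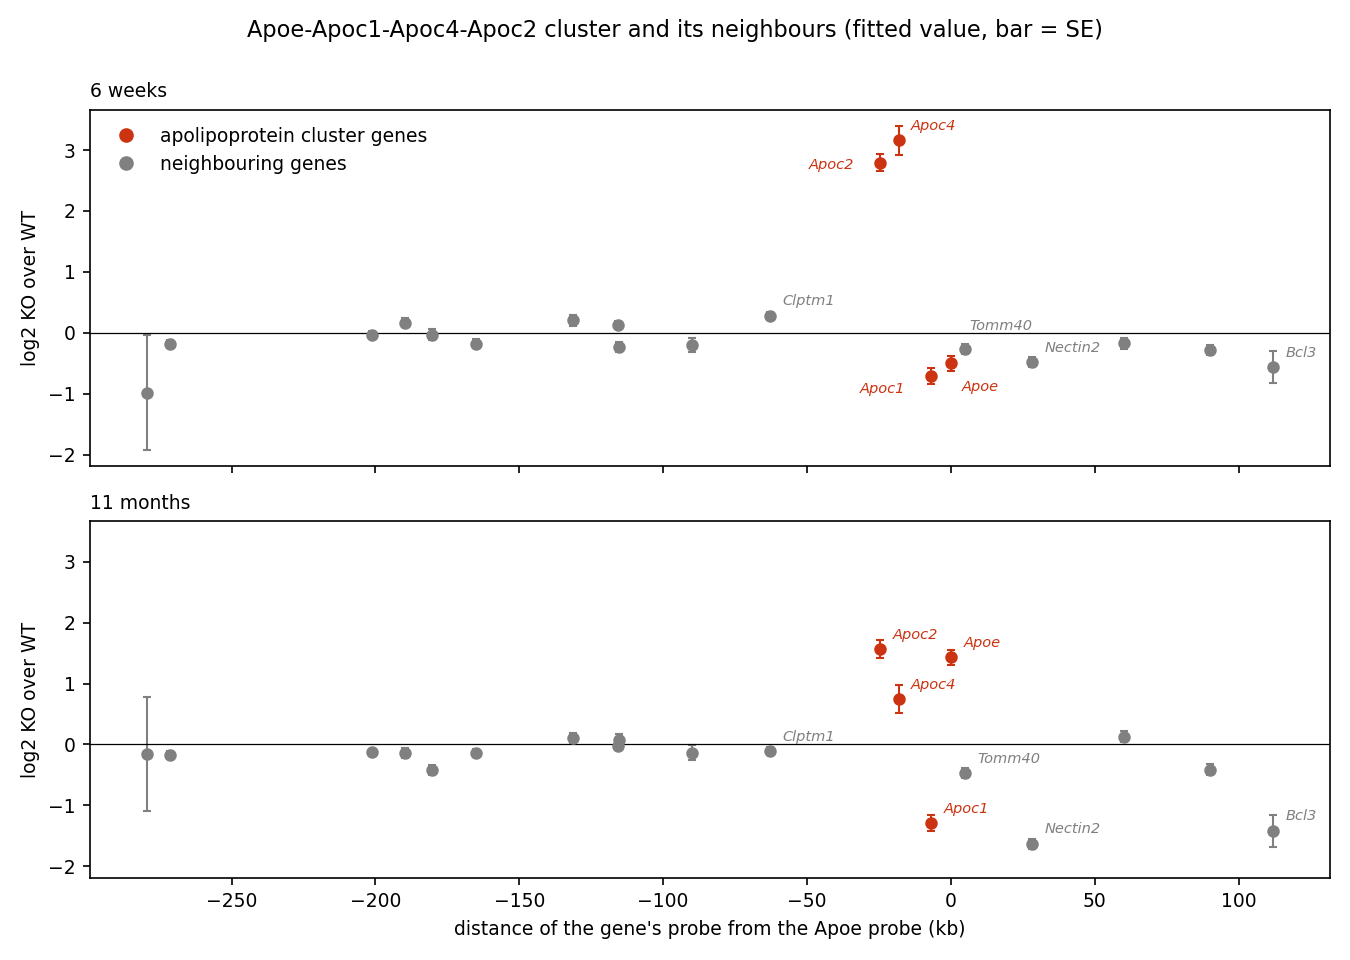
Fitted log2 ratio of KO over WT with its SE for the 4 apolipoprotein genes of the chromosome 7 cluster (red) and 16 neighbouring genes (grey), against the distance of each gene's probe from the Apoe probe in kb, at 6 weeks (top) and 11 months (bottom). Apoc2 and Apoc4 lie apart from their neighbours at 6 weeks, and at 11 months Apoc1 lies below 0 between Apoc4 and Apoe, both above it.

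The genes around the cluster had calls on both sides at 6 weeks and on the low side only at 11 months. Of 16 measured neighbours on both sides, 1 rose and 1 fell at 6 weeks, against 9.18% and 7.01% of all genes, with a list median of -0.18. At 11 months 0 rose and 5 fell, against 17.9% and 16.8% of all genes, with a median of -0.14 (all genes 0.0082). Nectin2, a cell adhesion gene 28.1 kb beyond Apoe, fell at both ages, by 0.48 ± 0.08 (adjusted p = 0.0101) and by 1.63 ± 0.08 (adjusted p = 2.19e-05). Bcl3, a regulator of NF-kappa B, fell by 1.42 ± 0.26 at 11 months (adjusted p = 0.00484). Tomm40, the mitochondrial import pore gene next to Apoe, fell by 0.48 ± 0.08 (adjusted p = 0.00331). Under median centring the calls of Nectin2 at 6 weeks (-0.27, adjusted p = 0.304) and Tomm40 (-0.30, adjusted p = 0.286) ended. Clptm1, the nearest tested gene beyond Apoc2, rose by 0.28 ± 0.06 at 6 weeks (adjusted p = 0.0222), a call that ended without 6-week array 1, 2 or 4 (adjusted p = 0.101, 0.0781 and 0.0685), under median centring (0.168) and with the scanner software's ratio (0.0902), and stood at -0.11 ± 0.06 at 11 months (adjusted p = 0.213).

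At 11 months 6 of the 10 genes were called, against 34.7% of all genes. Of these 4 rose (Apoc2, Apoc4, Apoe and Lpl) and 2 fell (Apoc1 and Vldlr), against 17.9% and 16.8% of all genes, and the median of the 10 was 0.50, against 0.0082 for all genes. Apoc4 passed the filter on dim probes only through its KO channels: WT was well above background on 3 arrays at 6 weeks and 0 at 11 months. Its call is therefore a description and lends no support to the count. Under the strict filter, which did not test Apoc4, 5 of the genes were called, 3 higher and 2 lower. With each age modelled alone 5 were called as well, 3 higher and 2 lower, and Apoc4 was not among them. Over probes 9 of 14 were called, against 33.8% of all probes, with 5 higher (17.3% of all probes) and 4 lower (16.4%). KO and WT levels did not overlap for Apoc2, Apoe and Lpl on the high side and Apoc1 and Vldlr on the low side, against 12.9% of all genes on each side.

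Lpl, the enzyme, rose at 11 months on both of its probes. The probe at the 3′ end had levels of 17.41, 17.29, 17.78 and 17.32 in KO tissue, against 15.55, 15.58, 16.46 and 17.00 in WT tissue. The groups did not overlap, although the WT sample of array 4 came close to the lowest KO samples. The fitted value was 1.30 ± 0.21 (2.46-fold, adjusted p = 0.00256). The more 5′ probe had levels of 15.53, 15.48, 15.77 and 15.53 in KO tissue, against 14.50, 14.41, 14.47 and 15.02 in WT tissue, and gave 0.97 ± 0.16 (1.96-fold, adjusted p = 0.00289 over all probes). The dye coefficient was 1.58 on the 3′ probe and 0.27 on the more 5′ probe. Without a dye coefficient the adjusted p of the 3′ probe was 0.0524. With single arrays left out the value lay between 0.98 and 1.45, with adjusted p of 0.0108 or below. At 6 weeks the 3′ probe stood at 0.31 ± 0.21 and the more 5′ probe at 0.07 ± 0.16, with overlapping groups on both. The sign of the 3′ probe then followed the dye, with -0.89 and -0.67 for KO in Cy3 and 1.53 and 1.29 for KO in Cy5.

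The genes that fold, anchor and inhibit the enzyme were not called by limma on their main probes at 11 months. Gpihbp1 was at 0.07 ± 0.15 (adjusted p = 0.751), with KO levels of 13.83 to 14.63 against WT levels of 13.82 to 14.35. Angptl4 was at 0.45 ± 0.25 (adjusted p = 0.192), with KO levels of 16.63 to 16.77 against WT levels of 15.75 to 16.74. Both pairs of groups overlapped. Lmf1 was at -0.19 ± 0.13 (adjusted p = 0.284), and its second probe fell by 0.32 ± 0.10 without overlap of the groups (adjusted p = 0.0381 over all probes). A p above the threshold does not show equal levels. At 6 weeks Gpihbp1 stood at -0.17 ± 0.15, Angptl4 at -0.06 ± 0.25 and Lmf1 at 0.35 ± 0.13.

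Vldlr, the receptor that binds triglyceride-rich particles and, in mice, aids their hydrolysis by lipoprotein lipase, fell at 11 months. Its levels were 13.24, 13.25, 13.42 and 13.65 in KO tissue, against 13.97, 14.12, 13.81 and 13.95 in WT tissue, without overlap. The fitted value was -0.57 ± 0.11 (1.49-fold lower in KO, adjusted p = 0.00599). A more 5′ probe of the same gene gave -0.72 ± 0.17 (adjusted p = 0.0135 over all probes). At 6 weeks the probes stood at -0.03 ± 0.11 and -0.29 ± 0.17, and the groups overlapped on both.

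Apod encodes a lipocalin that binds arachidonic acid and is not related in structure to the other apolipoproteins. At 11 months its KO levels were 12.12, 12.22, 12.82 and 12.03, against WT levels of 11.93, 12.08, 11.44 and 11.59. All 4 arrays were positive, the groups overlapped, and the fitted value of 0.54 ± 0.23 was not past the threshold (adjusted p = 0.104). It passed under median centring (0.76, adjusted p = 0.0242) and without 6-week array 2 (0.54, adjusted p = 0.0323), and it was 0.25 without 11-month array 3 (adjusted p = 0.378) and 0.26 with the mean of both probes (adjusted p = 0.133). At 6 weeks the levels were 11.05, 10.38, 10.41 and 10.37 in KO tissue, against 11.55, 11.97, 11.20 and 11.24 in WT tissue, without overlap, and the fitted value was -0.94 ± 0.23. The difference between the ages was 1.48 ± 0.32. A second, dim probe stood at -0.04 ± 0.07 and -0.01 ± 0.07 (adjusted p = 0.929 over all probes at 11 months).

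Markers of cell types moved at both ages as well, and their part in the values of these genes was not tested. The counts are those of 11 months unless an age is named. Of all genes 17.9% were called higher and 16.8% lower at 11 months, and 9.18% and 7.01% at 6 weeks. Apoe and Apoc1 are known products of macrophages, and 7 of 16 macrophage and myeloid markers rose and 0 fell, with summed intensities of 21547 to 40568 in KO tissue, against 20125 to 24317 in WT tissue. Of 9 fibroblast markers 7 rose, summing to 104007 to 301168 in KO tissue, against 54353 to 71617 in WT tissue. Of 7 general adipocyte markers 6 rose, Adipoq by 1.49 ± 0.08, summing to 919529 to 1096050 in KO tissue, against 292669 to 599850 in WT tissue. Of 11 endothelial markers 2 rose, Vwf and Fabp4 (which also stands among the adipocyte markers), summing to 290178 to 336174 in KO tissue, against 163427 to 337058 in WT tissue. The liver is the main source of APOC2 and APOC4 in the body. Of 10 hepatocyte markers Alb, Ttr, Fgb and Ahsg did not pass the filter on dim probes, and 3 of the 6 measured rose at both ages, namely Serpina1a, Trf and Cyp2e1, while Apoa2 was called lower at 6 weeks (-0.28, adjusted p = 0.0483), a call that held in 6 of 20 alternatives and ended without any one of the 4 6-week arrays (adjusted p = 0.0827 to 0.203) and under median centring (-0.056, adjusted p = 0.866). The 6 summed to 113691 to 146806 in KO tissue at 6 weeks, against 26619 to 69314 in WT tissue, and to 221723 to 285040 in KO tissue at 11 months, against 17692 to 30833 in WT tissue. Trf and Cyp2e1 are also known to be expressed in adipose tissue. At 6 weeks 1 of the 16 macrophage markers rose and 1 fell, and 0 of the 9 fibroblast markers were called by limma. At that age 5 of the 7 adipocyte markers rose, Retn by 2.40 ± 0.12 (adjusted p = 0.000288) and Fabp4 by 0.85 ± 0.08 (adjusted p = 0.00168) among them, summing to 548673 to 724599 in KO tissue, against 308954 to 562853 in WT tissue. Of the 11 endothelial markers 3 fell, Pecam1, Tie1 and Flt1, and Fabp4 rose, with sums of 261695 to 327316 in KO tissue, against 131030 to 274888 in WT tissue. The median log2 ratio of that list lay between -0.18 and -0.068 in the 6-week arrays. A sum is led by its brightest probes, so the sums need not follow the median.

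Other regulators of lipoprotein lipase changed in both directions. Of 16 measured, 5 rose and 1 fell at 6 weeks (median 0.10), against 9.18% and 7.01% of all genes. At 11 months 5 rose and 3 fell (median 0.10), against 17.9% and 16.8% of all genes. Angptl8, which takes part in the inhibition of the enzyme after feeding, rose at 6 weeks by 1.28 ± 0.21 (adjusted p = 0.00914) and stood at -0.47 ± 0.21 at 11 months (adjusted p = 0.124). Furin, a protease that cuts lipoprotein lipase and angiopoietin-like proteins, rose at 6 weeks by 0.60 ± 0.11 (adjusted p = 0.0112) and fell at 11 months by 0.34 ± 0.11 (adjusted p = 0.0388). At 11 months Sort1, a sorting receptor that binds the enzyme, rose by 0.92 ± 0.06 (adjusted p = 4.77e-05), and Hspg2, the heparan sulphate proteoglycan perlecan, rose by 0.80 ± 0.10 (adjusted p = 0.000635). Lipa, the lysosomal acid lipase that degrades lipoprotein lipids after uptake, fell by 1.34 ± 0.08 (adjusted p = 3.99e-05). The 6-week call of Furin ended under median centring (0.83, adjusted p = 0.07).

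Of the other apolipoproteins and assembly factors 14 of 23 were measured. At 6 weeks 1 rose and 2 fell (median 0.095), against 9.18% and 7.01% of all genes. At 11 months 6 rose and 2 fell (median 0.32), against 17.9% and 16.8% of all genes. Apol6 rose at both ages, by 1.14 ± 0.19 (adjusted p = 0.00997) and 1.26 ± 0.19 (adjusted p = 0.00199). Apoo and Apool, which despite their names encode subunits of the mitochondrial cristae-organising complex, fell at 11 months by 1.53 ± 0.12 and 1.25 ± 0.08 (adjusted p = 9.08e-05 and 5.74e-05). Saa3, an acute-phase apolipoprotein made in mouse adipose tissue, rose by 1.09 ± 0.25 at 11 months (adjusted p = 0.0118), a call that ended without 11-month array 1 or 2 (adjusted p = 0.0629 and 0.0625). Its size was 1.90 with no offset, 2.16 in the deposited table and 4.42 with the scanner software's ratio.

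Among 21 measured lipoprotein receptors and adaptors 7 rose and 3 fell at 6 weeks (median 0.15), against 9.18% and 7.01% of all genes. At 11 months 9 rose and 2 fell (median 0.21), against 17.9% and 16.8% of all genes. Sorl1, a sorting receptor that also binds lipoprotein lipase, rose at 6 weeks by 2.54 ± 0.44 (adjusted p = 0.0107). Lrpap1, the chaperone of LDL receptor family members, rose at both ages, by 0.80 ± 0.10 (adjusted p = 0.00314) and 0.95 ± 0.10 (adjusted p = 0.000299). Scarb1, the receptor for high-density lipoprotein, rose by 0.98 ± 0.12 at 11 months (adjusted p = 0.000648). Lrp1, a remnant receptor that binds APOE, fell by 0.67 ± 0.12 at 6 weeks (adjusted p = 0.0128) and rose by 0.75 ± 0.12 at 11 months (adjusted p = 0.00269). The 6-week call of Lrp1 ended without 6-week array 1 or 2 (adjusted p = 0.06 and 0.0566) and under median centring (-0.46, adjusted p = 0.115).

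**Figure D4:**
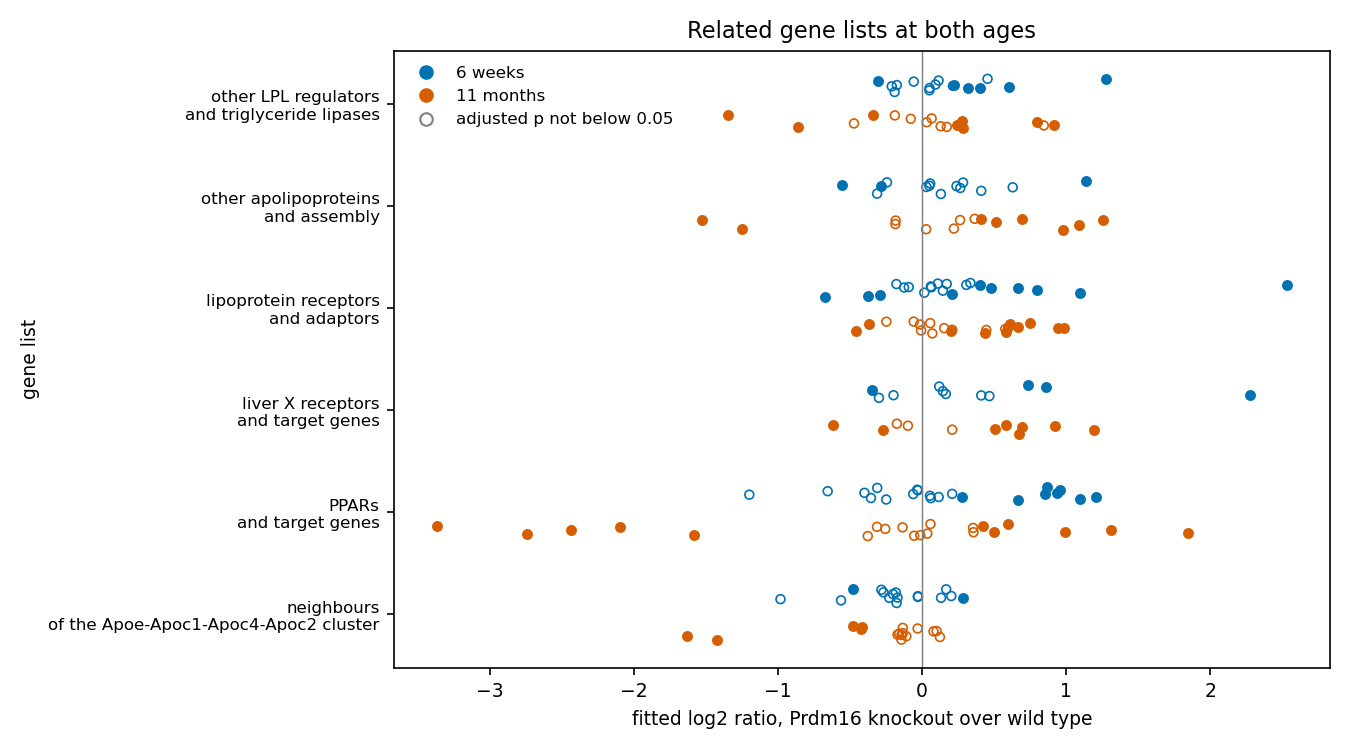
Fitted log2 ratio of KO over WT for the genes of 6 related lists at 6 weeks (blue) and 11 months (orange), with 1 point per gene, filled where the adjusted p was below 0.05. At 11 months the PPAR list has called genes on both sides of 0 and the neighbours of the apolipoprotein cluster on the low side only, while at 6 weeks those neighbours have 1 called gene on each side.

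Liver X receptors, which sense oxysterols, and PPARs, which sense fatty acids, are known to act on several of the 10 genes, Apoe and Apoc2 among the targets of the first and Lpl and Angptl4 among those of the second. Of 11 measured liver X receptor genes and targets outside the set, 3 rose and 1 fell at 6 weeks (median 0.17), against 9.18% and 7.01% of all genes. At 11 months 6 rose and 2 fell (median 0.51), against 17.9% and 16.8% of all genes. The cholesterol exporter gene Abca1 rose at both ages, by 0.86 ± 0.11 (adjusted p = 0.00353) and 0.68 ± 0.11 (adjusted p = 0.00242). Abcg1, another sterol exporter gene, rose by 1.20 ± 0.21 at 11 months (adjusted p = 0.00376). Scd1, a desaturase, rose by 2.28 ± 0.30 at 6 weeks (adjusted p = 0.00408) and stood at -0.17 ± 0.30 at 11 months (adjusted p = 0.692). Of 21 PPAR genes and targets 8 rose and 0 fell at 6 weeks (median 0.062), and 6 rose and 5 fell at 11 months (median -0.011), against the same shares of all genes. Slc27a1, a fatty acid transporter, rose at both ages, 2.14-fold (adjusted p = 0.000288) and 2.49-fold (adjusted p = 1.23e-05). The 5 that fell at 11 months were Fabp3, a fatty acid carrier (-3.37 ± 0.73), the oxidation genes Cpt1b (-2.74 ± 0.35) and Acadm (-1.58 ± 0.23), the pyruvate dehydrogenase kinase gene Pdk4 (-2.43 ± 0.41) and the receptor gene Ppara (-2.09 ± 0.44), with adjusted p between 0.000888 and 0.00937.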

How the data were processed

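The scanner files give, per the file headers, a mean spot intensity and a median background intensity for each channel, read by Agilent Feature Extraction 10.5.1.1 (6 weeks) and 10.10.1.1 (11 months) on a design annotated to mm9. They also give, per the file headers, the scanner software's log10 ratio of Cy5 to Cy3, background-subtracted and dye-normalised, which served as an alternative. The deposited value table holds log2 ratios, also an alternative. Limma is named in the submitters' processing notes, and the steps behind the table were not given in the sources used here. Set against the scanner ratios (r = 0.856 to 0.914), it ran as knockout over wild type, and its column medians were -0.05 to 0.084.

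Intensities were background-corrected (normexp, offset 50) and loess-normalised in limma 3.58.1 (R 4.3.3), with control and outlier spots at weight 0, and turned to knockout over wild type by the labelled dyes. Levels add Aquantile scaling. Replicate spots were averaged. The filter kept 26853 of 39429 probes: those well above background in 4 or more of 16 channel values and present on 3 or more arrays per age. The brightest kept probe stood for a gene. The model left 5 residual degrees of freedom, and the number of arrays limits precision. It was tested on simulated data. Names of 14810 genes came from RefSeq (GRCm38.p6) and 6932 kept the array's name.

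The genes and lists were chosen with earlier results of these data known. Named were the 10 genes with all probes, 4 check genes, up to 4 called genes per list and age with the largest change (the largest 2 where fewer than 2 were called), and the 5 genes most like Apoc2, Apoc4 and Lpl. Not all are given, and 1 gene of the lists is not reported here. Acadm and the single cell type markers were named after their values were seen. Alternatives covered normalisation, background, source of the ratio, dim probes, probe choice, dye terms, ages modelled alone, outlier spots, a replicate block and each array left out.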

Additional observations from a re-analysis of the deposited data

Results flagged for a closer look

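Apoe was opposite in sign at the 2 ages in every dye-adjusted array: the 4 arrays lay between 1.18 and 1.70 at 11 months and between -0.75 and -0.27 at 6 weeks, a difference of 1.93. Apod did the same, with arrays between 0.27 and 1.26 at 11 months and between -1.72 and -0.64 at 6 weeks, a difference of 1.48. Neither difference was tested, since the 6-week contrast chose the genes, and age cannot be told apart from batch. Without the dye adjustment the 6-week Apoe arrays with KO in Cy5 stood at 0.0038 and -0.028. The share of all genes with such opposite signs was not computed. No member had an array that stood apart from the other 3 of its age by Dixon's criterion.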

How the results depend on the processing

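The directions of Apoc2, Apoc1, Apoe, Lpl and Vldlr at 11 months held under all 20 alternatives, and only Lpl without a dye coefficient (adjusted p = 0.0524) lost its call. The number of the 10 genes called at 11 months was 5 or 6 throughout. At 6 weeks it was 5, against 3 with median centring (Apoc2, Apoc4 and Lpl higher), 3 with no dye coefficient, and 3 to 5 with single arrays left out, as without 6-week array 1, 2 or 3. Of all genes, median centring called 948 (70.0% higher, against 56.7%) in place of 3520 at 6 weeks, 4912 (70.8% higher, against 51.7%) in place of 7544 at 11 months, and 552 (59.6% higher, against 46.6%) in place of 3952 for the difference between ages. The scanner ratio called 2278 at 6 weeks, and no dye coefficient 2519 for the difference. Single arrays left out gave 1240 to 4277 at 6 weeks, 5028 to 7643 at 11 months and 2119 to 3224 for the difference, with fewer arrays to make calls. Over probes 6 to 9 of 14 were called. The sign turned for Lmf1 at 11 months under median centring (0.0051) and for Gpihbp1 without 11-month array 4, its range with single arrays left out being -0.15 to 0.28, and neither passed the test. The cause was not tested.

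With the replicate number as a replicate block, 4185, 7744 and 4245 genes were called at 6 weeks, at 11 months and for the difference, as were 5 and 6 of the 10 genes at the 2 ages and 8 of the 14 probes. Same-numbered arrays of the 2 ages had deviations correlated at 0.0897, 0.0897, -0.0603 and -0.0603. Taking out the dye within each age forces the equal values, so these are repeats and not separate checks. With the dye left in they were -0.0966, -0.0505, -0.187 and -0.056. The numbers were not taken as pairs. Signal over background limits Apoc4 at 11 months. The strict filter on dim probes did not test Apoc4.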

Other observations

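The genes whose dye-adjusted ratios lay nearest to those of Apoc2 over the 8 arrays, by root-mean-square difference, were Reep6 (0.519), Agt (0.544), Adap1, Adgrg2 and Unc119. Reep6, an endoplasmic reticulum protein gene, stood at 2.22 at 6 weeks and 1.85 at 11 months, and Agt, which encodes angiotensinogen, at 2.09 and 1.70. Nearest to Apoc4 was Ncan (0.59), the gene of the proteoglycan neurocan, at 2.61 and 0.37, and then Apoc2 itself (0.802) and the prostaglandin receptor gene Ptger3 (0.852). The other 2 of the 5 were array transcripts without a symbol. Nearest to Lpl were Ctsh (0.217), a lysosomal protease gene, at 0.28 and 1.05, then Cyb5a (0.249), Shisa5, Pf4 and Actb (0.278). These genes were found by their likeness, so their values are a description of the 8 arrays.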
